A study of Saccharomyces cerevisiae with 6 samples.

Results

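The comparison set 2 arrays of budding yeast without GPR1 against 2 arrays of budding yeast without GPA2, 4 of the 6 arrays of the study. The arrays were chosen by their titles alone. The gpr1 deletion lacks the receptor and keeps GPA2, the gpa2 deletion lacks the G alpha subunit and keeps GPR1, and 2 wild-type arrays give context. All 3 strains are of the W303-1a background, and total RNA of each sample was labelled in a single colour and hybridised to its own oligonucleotide array. The sources used here do not name the growth medium, the time of harvest or the marker used to delete each gene. Array 2 of the gpa2 deletion is labelled as a repeat experiment, and the labels do not state whether replicate arrays stem from separate cultures. The p-values therefore rest on a spread between samples that may be technical only.

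Gpr1 is a plasma membrane receptor that responds to glucose, and Gpa2 is the G alpha protein that couples it to adenylate cyclase, which makes cAMP. cAMP releases the catalytic subunits of protein kinase A from their inhibitor Bcy1. In growing yeast this kinase keeps the stress activators Msn2 and Msn4 out of the nucleus, lowers glycogen and trehalose stores and promotes the making of ribosomes. The title of the study ties this receptor system to cell size on glucose. The comparison asks which functions were set at different levels when the receptor or the G alpha subunit was missing.

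Each array reported 1 intensity for each of 9335 probe sets, and the 9275 that are not controls were tested. Levels below are log2 intensities after quantile normalization over all 6 arrays, with a floor at log2 3.16. A difference is gpr1 deletion minus gpa2 deletion on that scale, with its standard error (SE) from limma over 2 arrays per group. The median SE over probe sets was 0.234, and the number of arrays limits the precision of every value. Median deposited intensities were 525.9 and 265.4 on the gpr1 arrays (1 and 2), against 225.1 and 237.6 on the gpa2 arrays and 563.5 and 373.5 in wild type, so gpr1 array 1 was 2.34-fold brighter than the dimmest gpa2 array. Across probe sets, Pearson's r was 0.973 between the gpr1 arrays and 0.972 between the gpa2 arrays. The highest value, 0.976, joined gpr1 array 2 and gpa2 array 2. Arrays of 1 deletion were thus not always more alike than arrays of different deletions. The ratio of 3' to 5' signal of ACT1, a measure of RNA integrity, was 1.35 and 1.53 on the gpr1 arrays, against 1.54 and 1.53 on the gpa2 arrays and 1.26 and 1.29 in wild type. For SPT15 the ratio was 4.46 and 4.83 (gpr1), 3.5 and 4.55 (gpa2), and 3.16 and 10.3 (wild type). For SRB4 the ratio was 2.36 and 2.05, 2.06 and 2.04, and 2.13 and 1.68 in the same order. The strain background matched mating type a: STE2, MFA1, MFA2, BAR1 and STE6 read between 9.71 and 13.84 on the 4 arrays, while the alpha markers STE3, MF(ALPHA)1 and MF(ALPHA)2 read between 5.54 and 6.93. The exceptions were ASG7, a gene of a cells, at 3.16 to 4.03, and SAG1, a gene of alpha cells, at 8.68 to 8.98.

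GPR1 and GPA2 separated the strains as labelled. The deposited intensity of GPR1 was 5.1 and 2.8 on the gpr1 arrays, against 490.7 and 634.9 on the gpa2 arrays and 1086.4 and 1013.9 in wild type. The deposited intensity of GPA2 was 1619.3 and 1029.2 on the gpr1 arrays, against 9.3 and 10.9 on the gpa2 arrays and 2410.3 and 1900.3 in wild type. Each gene was near or below the floor where it was deleted and bright in the other deletion. On the normalized scale both gpr1 arrays held GPR1 at the floor, at least 99.9-fold lower than the gpa2 arrays (difference -6.64 ± 0.21). GPA2 read higher on the gpr1 arrays by 6.18 ± 0.34, but its readings on the gpa2 arrays are near background, so the size is uncertain. Both sizes follow the floor: with it at the 25th percentile they were -3.57 and 4.07.

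**Figure D1:**
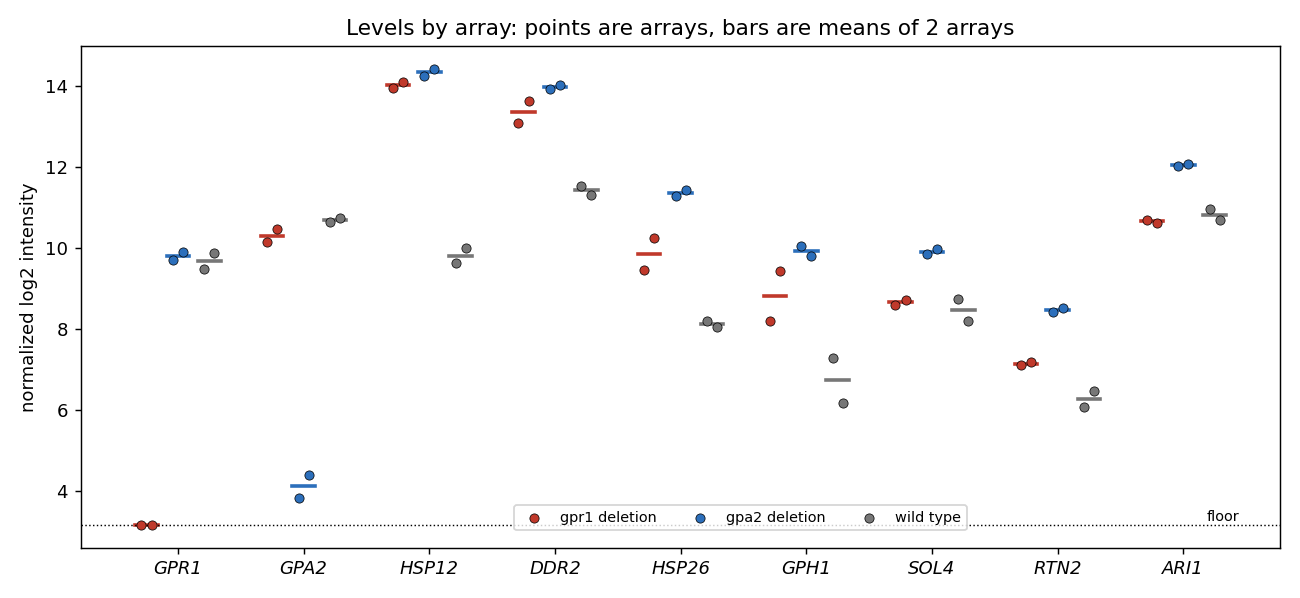
Normalized log2 intensity of the deleted genes and of 7 genes that read lower in the gpr1 deletion than in the gpa2 deletion after scaling. Each point is an array, bars are means of 2 arrays, and the dotted line is the floor at 3.16. HSP12 and DDR2 read higher in both deletions than in wild type, while HSP26, SOL4, RTN2 and ARI1 read over 1 log2 unit apart between the deletions.

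No probe set passed limma's test over all 9275 at a Benjamini-Hochberg threshold of 0.05 (0%), although 407 (4.39%) had an unadjusted p under 0.05. Of these, 183 (1.97%) were higher and 224 (2.42%) lower in the gpr1 deletion. GPR1 itself had an adjusted p of 0.139 and GPA2 one of 0.32 in that limma fit. In the same fit, 510 probe sets stood at the floor on all 4 arrays and so had no spread, and the prior that moderates the spread carried 0.924 degrees of freedom. With the 2319 probe sets under the 25th percentile of mean intensity left out, the prior carried 7.97 degrees of freedom and 3 of 6956 probe sets passed (0.0431%). They were GPR1 (limma adjusted p = 0.000123), GPA2 (limma adjusted p = 1e-04) and YDR524C-B, described below. The deleted genes passed that filter only through the deletion in which each is bright, and their difference is set by the genotype. With the median as the cut-off instead, both were left out. Beyond the deleted genes, differences are therefore given as levels and counts, and no other gene is called changed. As bulk RNA was measured, a shift in all cells and a larger shift in some cells cannot be told apart.

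Directions below are relative to the scaling. On the deposited values without scaling, the median difference over the 5656 genes named by a probe set of their own was 0.71, against 0.02 after scaling. Of 135 genes followed, 41 had the opposite sign on the deposited values, and all 41 were lower in the gpr1 deletion after scaling. After scaling, 15.7% of the 5656 genes had both gpr1 arrays above both gpa2 arrays and 14.6% had both below, 53.1% had a positive difference and 45.1% a negative one. Non-overlapping arrays at least 2-fold apart were found for 112 genes (1.98%), of which 62 were higher and 50 lower in the gpr1 deletion. With 2 arrays a group, the smallest two-sided exact permutation p for 1 gene is 0.333. A range given as "without 1 array" spans the differences when each of the 4 deletion arrays is left out in turn. It is given where 1 array moved the difference by over 1.5 times, other than for differences near or below their SE.

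Most signalling genes other than the deleted ones read within 0.5 log2 units of each other in the deletions. Of 20 measured genes of the Ras, cAMP and protein kinase A system, the 18 other than GPR1 and GPA2 read between -0.50 and 1.91. TPK2, a catalytic subunit of protein kinase A, read 9.85 and 9.85 on the gpr1 arrays, against 10.46 and 10.25 on the gpa2 arrays and 9.99 and 9.93 in wild type. The gpr1 arrays lay below the gpa2 arrays and near wild type, with a difference of -0.50 ± 0.10 (0.23 on the deposited values, where the median of all genes was 0.71). TPK3, another catalytic subunit, read 9.33 and 9.30 on the gpr1 arrays, against 8.50 and 8.98 on the gpa2 arrays and 9.02 and 9.28 in wild type. Here the gpr1 arrays were the higher ones, with a difference of 0.57 ± 0.22 (0.33 without gpa2 array 1, 0.81 without gpa2 array 2). Neither subunit passed limma's test (adjusted p = 0.96 for both).

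Upstream of the kinase, RAS1, a GTPase that activates adenylate cyclase, read 11.51 and 11.59 on the gpr1 arrays, against 10.89 and 11.36 on the gpa2 arrays, a difference of 0.42 ± 0.20 (0.19 to 0.66 without 1 array). CDC25, its guanine nucleotide exchange factor, differed by -0.30 ± 0.20 (-0.44 to -0.15 without 1 array), with the gpr1 arrays below the gpa2 arrays. SDC25, a paralogue of CDC25, gave the largest positive difference of this list after GPA2 (1.91 ± 0.36) at a dim level, with 5.65 and 5.26 on the gpr1 arrays, against 3.93 and 3.16 on the gpa2 arrays, the last at the floor. RAS2, the other GTPase, differed by 0.07 ± 0.21, and CYR1, adenylate cyclase, by -0.36 ± 0.55, on a probe set whose design name marks possible cross-hybridisation. It is the brightest of 9 probe sets of CYR1, which read between -1.01 and 1.19. The arrays of both groups overlapped for RAS2 and CYR1.

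Partners of the missing proteins differed by amounts near or below their SE. RGS2, which speeds GTP hydrolysis by Gpa2, differed by -0.01 ± 0.22, and PLC1, a phospholipase C that binds Gpr1, by 0.03 ± 0.36. The kelch proteins GPB1 and GPB2, which bind Gpa2, differed by -0.18 ± 0.19 and 0.12 ± 0.12. BCY1, the inhibitory subunit of the kinase, differed by -0.07 ± 0.22, and the phosphodiesterases PDE1 and PDE2, which break down cAMP, by -0.27 ± 0.23 and 0.03 ± 0.08. ASC1, a ribosome-bound protein that acts as G beta for Gpa2, differed by -0.40 ± 0.44, with gpr1 array 1 at 13.72 and the other 3 arrays between 14.58 and 14.74 (0.11 without gpr1 array 1, and -0.82 with all arrays under median centring). Among 16 regulators that act below the kinase, 7 read higher and 9 lower, with a median of -0.03. PHD1, an activator of filamentous growth, differed most there, by -0.40 ± 0.12, with 9.72 and 9.84 on the gpr1 arrays, against 10.07 and 10.29 on the gpa2 arrays.

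**Figure D2:**
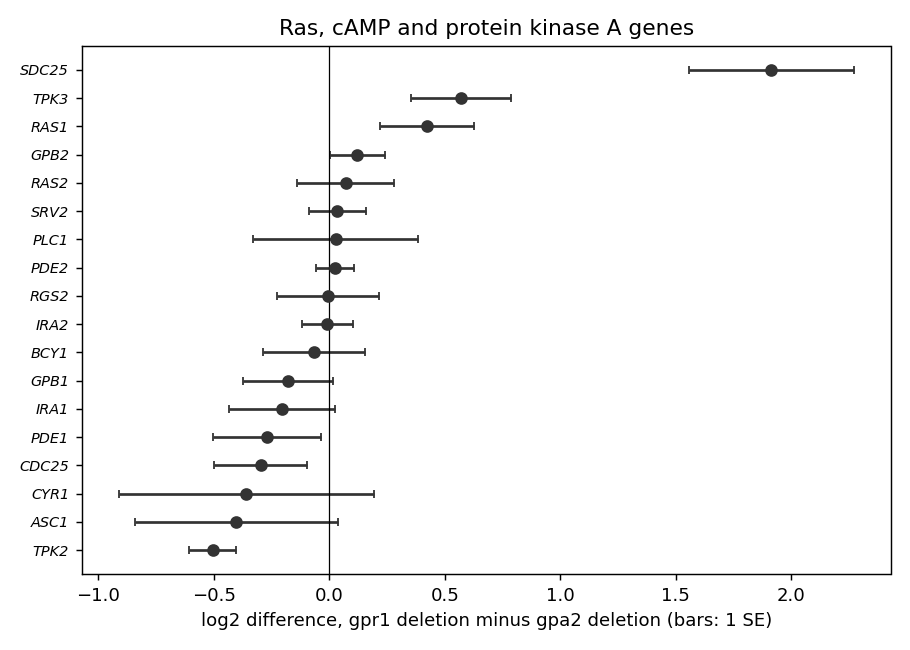
Log2 difference, gpr1 deletion minus gpa2 deletion after scaling, for 18 genes of the Ras, cAMP and protein kinase A system other than GPR1 and GPA2, with bars of 1 SE. Most points lie within 0.5 of 0, SDC25 stands at 1.91 from levels near the floor, and TPK2 lies below 0 while TPK3 lies above it; TPK2 had the opposite sign on the deposited values.

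Among lists with 10 or more measured genes, general stress and glycogen genes had the lowest medians in the gpr1 deletion relative to the gpa2 deletion. Of 78 measured genes of the Msn2 and Msn4 stress response, 69 read lower and 9 higher in the gpr1 deletion, with a median difference of -0.39, against 0.02 over all genes. Both gpr1 arrays lay below both gpa2 arrays for 45 of them (57.7%), against 14.6% of all genes, and above them for 0. At an unadjusted p under 0.05, 15 were lower and 0 higher, against 2.09% and 2% of all genes, and 0 passed the adjusted limma test (lowest adjusted p = 0.601). The mean level of the 78 genes was 9.53 and 9.75 on the gpr1 arrays, against 10.07 and 10.13 on the gpa2 arrays and 9.22 and 9.13 in wild type. The gpr1 arrays thus stood between wild type and the gpa2 arrays. The median difference from wild type was 0.36 for the gpr1 deletion and 0.84 for the gpa2 deletion, and these share the wild-type arrays. On the deposited values without scaling the list median was 0.29, which is -0.42 relative to the median of all genes.

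HSP26, a small heat shock chaperone, read 9.45 and 10.25 on the gpr1 arrays, against 11.28 and 11.44 on the gpa2 arrays and 8.20 and 8.04 in wild type. The 3 strains did not overlap, and the difference between the deletions was -1.51 ± 0.34. RTN2, a reticulon-like protein of the endoplasmic reticulum, read 7.11 and 7.17 on the gpr1 arrays, against 8.41 and 8.53 on the gpa2 arrays and 6.07 and 6.47 in wild type. Its arrays followed the same order as those of HSP26, with a difference of -1.33 ± 0.18. SOL4, an enzyme of the pentose phosphate pathway, read 8.60 and 8.71 on the gpr1 arrays, against 9.85 and 9.97 on the gpa2 arrays and 8.73 and 8.20 in wild type. Its gpr1 arrays lay within the wild-type range and below the gpa2 arrays (difference -1.26 ± 0.10; limma adjusted p = 0.601, and 0.194 with dim probe sets left out).

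HSP12 and DDR2, both reporters of this response, were closer between the deletions than to wild type. HSP12, a small membrane-associated stress protein, read 13.96 and 14.11 on the gpr1 arrays, against 14.25 and 14.43 on the gpa2 arrays and 9.63 and 9.99 in wild type. DDR2, a stress-induced protein, read 13.09 and 13.62 on the gpr1 arrays, against 13.91 and 14.02 on the gpa2 arrays and 11.53 and 11.32 in wild type. For both genes the deletion arrays stood far above wild type and near each other, with differences of -0.31 ± 0.14 for HSP12 and -0.61 ± 0.24 for DDR2. The HSP12 difference was 0.03 on the deposited values and -0.66 under median centring, and that of DDR2 was -0.87 to -0.35 without 1 array. Other stress and store genes named here lay on either side. By mean level, the gpr1 deletion was nearer to wild type for CTT1, TPS1, RTN2 and SOL4. It was nearer to the gpa2 deletion for HSP26, GPH1, TSL1, GSY2 and PGM2. In the order gpr1, gpa2 and wild type, means were 6.87, 7.77 and 6.57 for CTT1 and 10.72, 11.10 and 9.61 for TSL1. HSP12 and DDR2, and RTN2, were named after their values were seen. PHM7, SDP1, a phosphatase of the cell wall kinase Slt2, and XBP1, a stress-induced repressor, had larger differences with large errors, at -2.14 ± 0.95, -2.11 ± 1.10 and -1.54 ± 0.58. For all 3 genes the gpr1 arrays stood over 1 log2 unit apart from each other, and without 1 array the differences were -3.27 to -1.01, -3.39 to -0.82 and -2.14 to -0.93.

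Genes of carbohydrate stores lay on the same side as the stress list, which shares 6 of the 12 glycogen genes and 5 of the 10 trehalose genes measured. All 12 glycogen genes read lower in the gpr1 deletion, 5 of them (41.7%, against 14.6% of all genes) without overlap. Their median was -0.40 (0.31 on the deposited values, -0.40 relative to all genes). GPH1, glycogen phosphorylase, read 8.21 and 9.42 on the gpr1 arrays, against 10.05 and 9.81 on the gpa2 arrays and 7.28 and 6.18 in wild type. The gpr1 arrays again lay between the others, with a difference of -1.11 ± 0.52 (-0.50 without gpr1 array 1). GLG1, glycogenin, which primes the polymer, read 5.52 and 4.82 on the gpr1 arrays, against 6.36 and 6.32 on the gpa2 arrays. In wild type GLG1 read 6.04 and 5.89, so its gpr1 arrays lay below both other strains. The difference was -1.17 ± 0.32 at a dim level. GSY2, the main glycogen synthase (named after its values were seen), read 9.48 and 9.70 on the gpr1 arrays, against 9.89 and 10.15 on the gpa2 arrays, a difference of -0.43 ± 0.15. GDB1, the debranching enzyme, differed by -0.64 ± 0.29 without overlap (-0.96 to -0.33 without 1 array), and GAC1, a subunit that targets a phosphatase to glycogen synthase, by -0.45 ± 0.77 with overlap. Enzymes of synthesis and of breakdown thus read lower together.

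Of the trehalose genes, 9 of 10 read lower and UGP1 higher in the gpr1 deletion, with 8 (80%, against 14.6% of all genes) below without overlap. Their median was -0.26 (0.46 on the deposited values, -0.25 relative to all genes). PGM2, the main phosphoglucomutase, read 9.27 and 9.41 on the gpr1 arrays, against 10.41 and 10.04 on the gpa2 arrays and 8.48 and 8.20 in wild type, a difference of -0.89 ± 0.17. Its gpr1 arrays lay between wild type and the gpa2 arrays. ATH1, the acid trehalase, differed by -0.61 ± 0.28, TPS2, trehalose-6-phosphate phosphatase, by -0.45 ± 0.30, and TSL1, a regulatory subunit of the synthase complex, by -0.39 ± 0.21. The TPS2 difference was -0.10 without gpa2 array 1, and the TSL1 difference -0.16 without gpa2 array 2. TPS1, the synthase itself (named after its values were seen), differed by -0.31 ± 0.16 (0.38 on the deposited values, and -0.46 to -0.16 without 1 array), with 11.49 and 11.79 on the gpr1 arrays, against 11.85 and 12.05 on the gpa2 arrays and 11.51 and 11.70 in wild type.

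Related protective groups lay lower by less. Of 31 oxidative defence genes, 21 read lower. Without overlap, 12 lay below (38.7%, against 14.6% of all genes) and 1 above. Their median was -0.10 (0.58 on the deposited values, and -0.18 to -0.09 without 1 array), and 4 of the 31 are also on the stress list. SOD2, mitochondrial superoxide dismutase, read 11.64 and 11.72 on the gpr1 arrays, against 12.19 and 12.17 on the gpa2 arrays, a difference of -0.50 ± 0.06 (0.19 on the deposited values). SRX1, sulfiredoxin, differed by -1.30 ± 0.23, and CTT1, cytosolic catalase, by -0.90 ± 0.44, both without overlap. CTT1 read 6.85 and 6.90 on the gpr1 arrays, against 8.24 and 7.30 on the gpa2 arrays, and its difference was -0.43 without gpa2 array 1. Of 35 autophagy genes, 25 read lower, with a median of -0.19 (0.52 on the deposited values). Without overlap, 12 lay below (34.3%, against 14.6% of all genes) and 2 above. ATG29, at the floor on both gpr1 arrays and on gpa2 array 2, differed by -1.83 ± 1.51. ATG21 differed by -1.05 ± 0.44 without overlap (-1.41 to -0.69 without 1 array). ATG33, which acts in the removal of mitochondria, read 7.62 and 6.88 on the gpr1 arrays, against 8.96 and 8.63 on the gpa2 arrays, and ATG34, a receptor for cargo of the vacuole, 9.07 and 9.23 on the gpr1 arrays, against 9.77 and 9.68 on the gpa2 arrays. Both genes had their gpr1 arrays the lower ones, with differences of -1.55 ± 0.37 and -0.58 ± 0.10.

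Chaperones lay on both sides. Of 27 measured heat shock chaperones, 13 read higher and 14 lower, with a median of -0.04 (0.62 on the deposited values). Without overlap, 8 lay below (29.6%, against 14.6% of all genes) and 2 above. SSA1, an Hsp70, had the largest difference, -1.73 ± 0.89 without overlap (-2.76 to -0.69 without 1 array). It read 11.65 and 13.71 on the gpr1 arrays, against 14.68 and 14.14 on the gpa2 arrays and 12.86 and 14.36 in wild type. Thus 1 wild-type array lay within the range of each deletion. HSP82, the inducible Hsp90, differed by -0.47 ± 0.18 (-0.64 to -0.31 without 1 array), and SSA3, an inducible Hsp70, by 0.61 ± 0.61 at a dim level. Of 35 genes repressed by glucose, 26 read lower, with a median of -0.09 (0.49 on the deposited values). Without overlap, 10 lay below (28.6%, against 14.6% of all genes) and 2 above. Leaving out gpr1 array 2 gave -0.26 for this list, and leaving out gpr1 array 1 gave -0.05. NDE2, a mitochondrial NADH dehydrogenase, differed by -0.69 ± 0.12 with all 4 arrays near the floor. Nuclear genes of the respiratory chain had a median of -0.04, those of the citric acid cycle one of -0.10 and the mitochondrial ribosome one of -0.03. Hexose transporters, with 11 measured, had a median of 0.01, and glycolytic and fermentation genes one of -0.01. Under median centring, another scaling, 3 of these splits moved by over 10 percentage points. Glycolytic genes then had 8 higher and 22 lower (median -0.12, against 15 and 15), hexose transporters 4 and 6 (median -0.07, against 6 and 4), and respiratory chain genes 8 and 28 (median -0.09, against 15 and 21).

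**Figure D3:**
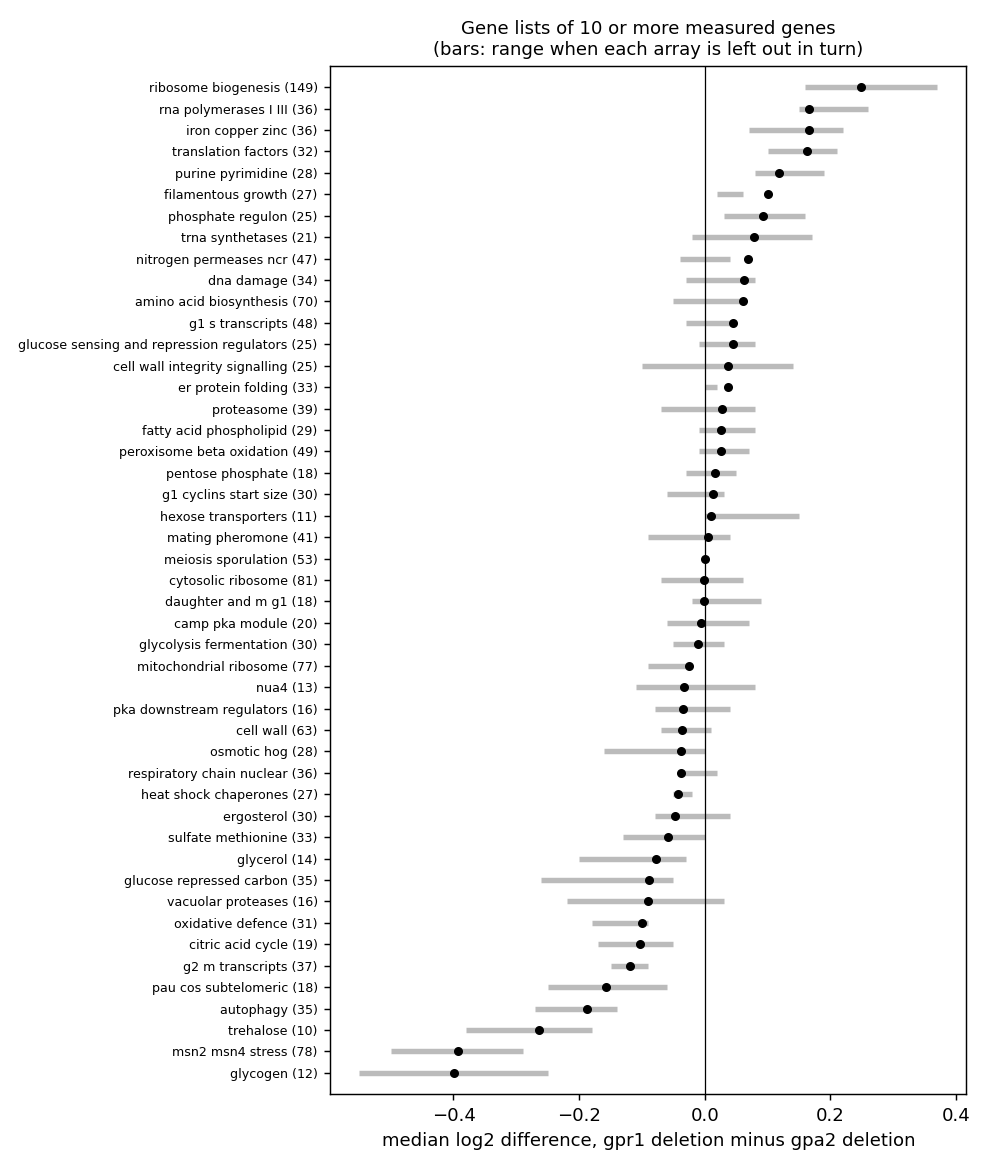
Median log2 difference, gpr1 deletion minus gpa2 deletion after scaling, for each gene list with 10 or more measured genes (number in brackets). Grey bars span the medians when each of the 4 arrays is left out in turn; glycogen, general stress and trehalose genes lie at the low end and ribosome biogenesis genes at the high end with bars that do not reach 0, while on the deposited values, where all genes had a median of 0.71, every one of these lists had a positive median.

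Genes for making ribosomes lay at the other end. Of 149 measured ribosome biogenesis genes, 139 read higher and 10 lower in the gpr1 deletion, with a median difference of 0.25. Both gpr1 arrays lay above both gpa2 arrays for 70 of them (47%), against 15.7% of all genes, and below them for TRM112 alone (0.671%). At an unadjusted p under 0.05, 11 were higher and 0 lower, against 2% and 2.09% of all genes. Of the 149 genes, 0 passed the adjusted limma test (lowest adjusted p = 0.64). The mean level of the 149 genes was 10.26 and 10.03 on the gpr1 arrays, against 9.88 and 9.86 on the gpa2 arrays and 10.35 and 10.29 in wild type. The gpr1 arrays again stood between wild type and the gpa2 arrays, here on the lower side of wild type. The median difference from wild type was -0.17 for the gpr1 deletion and -0.42 for the gpa2 deletion, which share the wild-type arrays.

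RRP14, a nucleolar protein needed for both ribosomal subunits, read 10.23 and 10.24 on the gpr1 arrays, against 9.44 and 9.51 on the gpa2 arrays and 10.18 and 10.46 in wild type. Its gpr1 arrays were at the wild-type level and the gpa2 arrays below it, with a difference of 0.76 ± 0.06 (limma adjusted p = 0.64). FCF2, which acts in early processing of ribosomal RNA, read 10.82 and 10.71 on the gpr1 arrays, against 9.86 and 10.14 on the gpa2 arrays and 10.98 and 10.61 in wild type. Its pattern was the same, with a difference of 0.77 ± 0.13. The RNA helicases DBP7 and SPB4 and the nucleolar protein NOP8, all of the large subunit, had the largest differences of the list, at 1.33 ± 0.66, 1.24 ± 0.74 and 1.01 ± 0.55. For all 3 genes gpr1 array 1 stood over 1 log2 unit above gpr1 array 2, and without it the differences were 0.63, 0.36 and 0.39. SPB4, for example, read 9.46 and 7.70 on the gpr1 arrays, against 7.32 and 7.36 on the gpa2 arrays and 9.28 and 10.14 in wild type.

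**Figure D4:**
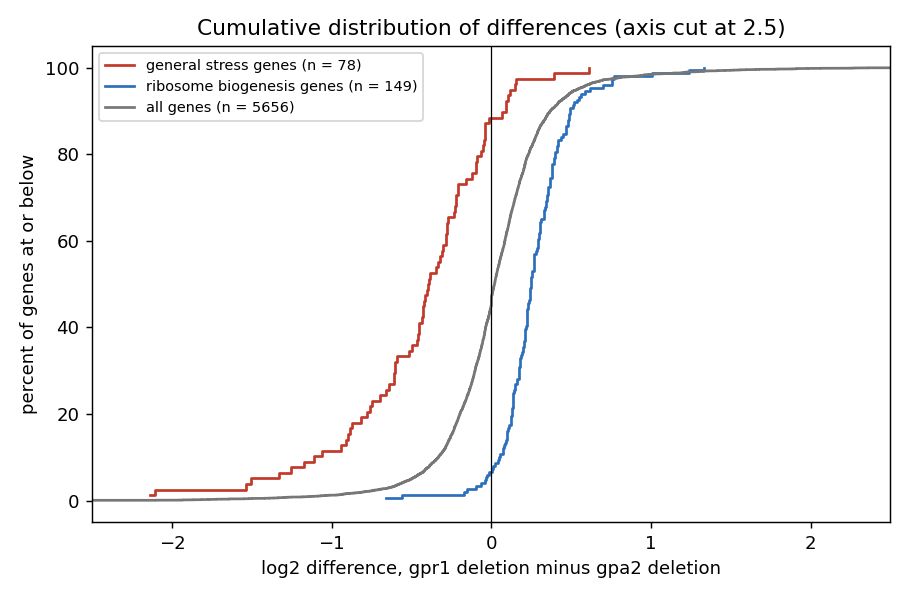
Cumulative share of genes (percent) at or below each log2 difference, gpr1 deletion minus gpa2 deletion after scaling, for 78 general stress genes, 149 ribosome biogenesis genes and all 5656 genes. The stress curve lies left of the curve for all genes (median -0.39, but 0.29 on the deposited values) and the ribosome biogenesis curve right of it (median 0.25, and 0.96 on the deposited values, where all genes had 0.71); the axis is limited to 2.5 in either direction.

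Most genes of the polymerases that transcribe ribosomal and transfer RNA genes also read higher in the gpr1 deletion. Of 36 genes of RNA polymerases I and III and their factors, 28 read higher, with a median of 0.17. Without overlap, 13 lay above (36.1%, against 15.7% of all genes) and 2 below. RPA190, the largest subunit of RNA polymerase I, read 11.23 and 10.65 on the gpr1 arrays, against 10.24 and 10.16 on the gpa2 arrays and 12.09 and 11.40 in wild type. The gpr1 arrays lay between wild type and the gpa2 arrays, with a difference of 0.74 ± 0.24 (0.45 without gpr1 array 1). RPA190 has 7 probe sets, which read between -0.50 and 0.74, and the value given is that of the brightest. RPC25, a subunit of RNA polymerase III, differed by 0.62 ± 0.26 (0.38 to 0.85 without 1 array), and TFC8, a subunit of the factor TFIIIC, by -0.63 ± 0.26. RPA12, a small subunit of RNA polymerase I (named after its values were seen), had a small difference with a small error, 0.24 ± 0.05. RPC25, RPA12 and TFC8 did not share the position of RPA190 relative to wild type. In the order gpr1, gpa2 and wild type, mean levels were 9.37, 8.75 and 8.89 for RPC25. They were 11.16, 10.92 and 10.82 for RPA12, and 6.93, 7.56 and 7.53 for TFC8.

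Of 32 measured translation factors, 27 read higher, with a median of 0.16. Without overlap, 8 lay above (25%, against 15.7% of all genes) and 1 below. The members that differed most, TIF4632, an eIF4G protein (0.51 ± 0.63), HYP2, eIF5A (-0.55 ± 0.39), and the eIF2B subunits GCD7 (-0.40 ± 0.51) and GCD6 (0.37 ± 0.22), had errors of like size. Leaving out 1 array turned the sign for TIF4632 (-0.11) and GCD7 (0.19) and gave -0.11 for HYP2 and 0.11 for GCD6. Of 28 purine and pyrimidine genes, 19 read higher, with a median of 0.12. Without overlap, 10 lay above (35.7%, against 15.7% of all genes) and 1 below. FUR4, the uracil permease, read 10.44 and 10.69 on the gpr1 arrays, against 9.82 and 9.86 on the gpa2 arrays and 10.25 and 10.98 in wild type, a difference of 0.73 ± 0.12. ADE13, adenylosuccinate lyase, differed by 0.44 ± 0.14, and ADE17, an enzyme of the last steps to inosine monophosphate, by -0.42 ± 0.14, both without overlap.

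Ribosomal protein genes divided evenly after quantile scaling but not under median centring. Of 138 listed, 57 had no probe set of their own (many of these genes exist as near-identical pairs), and the 81 measured divided into 40 higher and 41 lower, with a median of 0.00 to 2 decimals. This split depended on the scaling: under median centring 9 read higher and 72 lower, with a median of -0.25. The 4 largest differences of the list were negative. RPL21A read 12.58 and 13.32 on the gpr1 arrays, against 14.54 and 13.91 on the gpa2 arrays, a difference of -1.28 ± 0.41. In wild type RPL21A read 11.68 and 12.65, so its level was lower on each array with a higher median deposited intensity. RPL21B (-1.64 ± 1.37), RPL37A (-1.18 ± 1.03) and RPS21A (-1.14 ± 0.85) were low on gpr1 array 1 alone among the 4 arrays, and were low on wild-type array 1. Without gpr1 array 1 they read 0.02, 0.06 and -0.11. RPL21A and RPL21B are near-identical copies, so their signals cannot be fully separated.

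Brightness moved with these groups, and its part in them was not tested. From the brightest to the dimmest, the arrays were wild type 1, gpr1 1, wild type 2, gpr1 2, gpa2 2 and gpa2 1. Without gpr1 array 1, the remaining gpr1 array had a median deposited intensity of 265.4, against 225.1 and 237.6 on the gpa2 arrays. In that comparison the stress list had 61 genes lower and 17 higher (median -0.29), against 69 and 9 with all arrays. The ribosome biogenesis list had 120 higher and 29 lower (median 0.16), against 139 and 10. Without gpr1 array 2 the medians were -0.50 and 0.37. In order of brightness, the ribosome biogenesis means were 10.35, 10.26, 10.29, 10.03, 9.86 and 9.88, and the stress means were 9.22, 9.53, 9.13, 9.75, 10.13 and 10.07. Both lists thus placed the 3 brighter arrays on 1 side and the 3 dimmer arrays on the other. The ACT1 ratio of 3' to 5' signal was also lowest in wild type, while those of SPT15 and SRB4 did not follow that order. The part of RNA integrity was not tested.

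Some abundant transcripts did follow brightness through all 6 arrays. CCW12, a mannoprotein of the cell wall, read 9.33 and 11.01 on the gpr1 arrays, against 14.15 and 12.81 on the gpa2 arrays and 9.27 and 10.36 in wild type. Its level was lower on each brighter array, and the difference was -3.31 ± 0.89. YDR524C-B has 3 probe sets. The 1 past the limma threshold with dim probe sets left out behaved likewise. It read 9.33 and 10.34 on the gpr1 arrays, against 13.62 and 12.77 on the gpa2 arrays and 3.16 and 9.80 in wild type. YDR524C-B was the only gene beyond GPR1 and GPA2 past that threshold (difference -3.36, limma adjusted p = 0.00561). The other probe sets of YDR524C-B read -0.06 and -2.14. The latter also read lower on each brighter array, from 14.41 on gpa2 array 1 to 3.16 on wild-type array 1. TDH3, a glyceraldehyde-3-phosphate dehydrogenase with close paralogues, read 3.16 and 13.11 on the gpr1 arrays, against 14.21 and 13.44 on the gpa2 arrays and 3.16 on both wild-type arrays. Its difference was -5.69 ± 4.13 with gpr1 array 1 and -0.71 without it. RPL21A, described above, also read lower on each brighter array. The cause of these low readings on bright arrays was not tested.

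**Figure D5:**
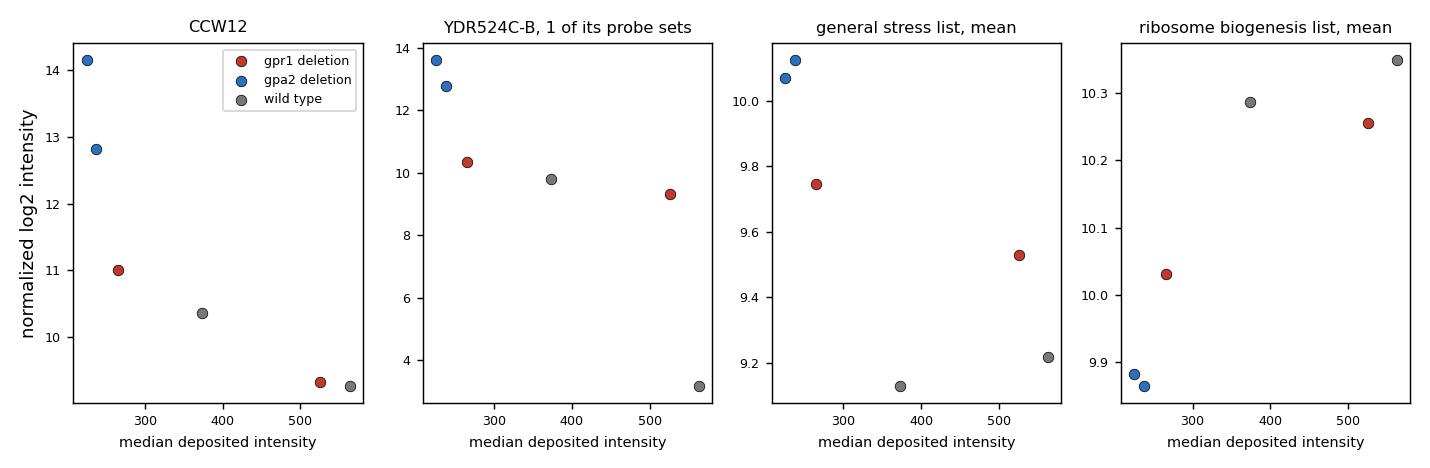
Normalized log2 intensity against the median deposited intensity of each of the 6 arrays, for CCW12, for 1 probe set of YDR524C-B, and for the means of 78 general stress genes and 149 ribosome biogenesis genes. CCW12 and YDR524C-B read lower on each brighter array, the 3 dimmer arrays have the higher stress means (9.75 to 10.13) and the lower ribosome biogenesis means (9.86 to 10.03), and brightness as a source of these orders was not tested.

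The single genes with the smallest unadjusted p were often dim. Of the 15 ranked in each direction, 15 of the 30 lay among the dim probe sets, 8 higher and 7 lower. Among the dim ones, COG3, a Golgi tethering protein (1.46 ± 0.03), and SPR3, a sporulation septin (1.01 ± 0.07), stood at the floor on both gpa2 arrays. The other probe set of COG3, the brighter one, read 0.20. HST4, a sirtuin (-0.33 ± 0.02), stood at the floor on both gpr1 arrays. Their small errors come from arrays tied at the floor, and dim values compress differences. CCH1, a plasma membrane calcium channel, gave 6.22 and 6.83 on the gpr1 arrays, against 3.16 and 3.83 on the gpa2 arrays and 4.18 and 6.58 in wild type. Its wild-type arrays spanned most of the gap between the deletions. The 9 probe sets of CCH1 read between -1.08 and 3.03, and the brightest of them 0.33.

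Among the brighter genes, ARI1, an aldehyde reductase that uses NADPH, stood out below. It read 10.70 and 10.62 on the gpr1 arrays, against 12.02 and 12.06 on the gpa2 arrays and 10.95 and 10.70 in wild type. The gpr1 arrays were near wild type and the gpa2 arrays more than 1 log2 unit above both. The difference was -1.38 ± 0.06, with a limma adjusted p of 0.287, of 0.0529 with dim probe sets under the 25th percentile left out and of 0.0409 with those under the median left out. In the fit with the median filter, CCW12, YDR524C-B and SNF7 also passed. With the spread of all 6 arrays, the limma adjusted p of ARI1 was 0.193, and 0.233 with the 25th percentile filter added. SRL3, a paralogue of the Start inhibitor WHI5, read 9.50 and 9.52 on the gpr1 arrays, against 10.30 and 10.19 on the gpa2 arrays and 10.64 and 10.17 in wild type, a difference of -0.74 ± 0.07. SPE2, which makes the aminopropyl donor for polyamines, GOR1, a glyoxylate reductase, and MVP1, a sorting nexin, differed by -0.42 ± 0.05, -0.57 ± 0.07 and -0.42 ± 0.06.

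In the other direction, GCD14, a subunit of a transfer RNA methyltransferase, read 10.80 and 10.77 on the gpr1 arrays, against 10.20 and 10.20 on the gpa2 arrays and 10.65 and 10.96 in wild type, a difference of 0.58 ± 0.05. SNR44, a small nucleolar RNA that guides the modification of ribosomal RNA, had both gpa2 arrays at 11.55 and both gpr1 arrays above them, a difference of 0.48 ± 0.05. TMA7, a protein that associates with ribosomes, differed by 0.68 ± 0.09. For these genes the gpr1 arrays were the higher ones without overlap. SNF7, a subunit of the ESCRT-III complex, differed by 1.55 ± 0.18 on 1 probe set but by -0.15 on the brightest probe set of SNF7. EAF7, which belongs to the NuA4 histone acetyltransferase, read 8.56 and 7.86 on the gpr1 arrays, against 6.18 and 6.11 on the gpa2 arrays and 8.56 and 8.32 in wild type. Its difference was 2.06 ± 0.36, while the 13 measured NuA4 genes had a median of -0.03 and EAF3, another subunit, read -0.38 ± 0.05.

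Cell size genes lay on both sides in equal number. Of 30 G1 cyclins and genes of Start and size control, 15 read higher and 15 lower, with a median of 0.01. Without overlap, 7 lay above (23.3%, against 15.7% of all genes) and 6 below (20%, against 14.6%). CLN3, the cyclin that opens Start, read 10.89 and 11.23 on the gpr1 arrays, against 11.11 and 11.16 on the gpa2 arrays and 10.89 and 11.03 in wild type. The arrays overlapped, with a difference of -0.08 ± 0.15. WHI5, the Start inhibitor, differed by -0.30 ± 0.28 with overlap, and SIC1, an inhibitor of the S phase kinase, by -0.27 ± 0.06 without overlap (0.45 on the deposited values). These 3 genes were named for their role after their values were seen. Of the members that differed most, WHI4 (-0.68 ± 0.14) was near the floor, and STB1 (0.58 ± 0.35), MBP1 (0.46 ± 0.34) and PCL2 (-0.45 ± 0.30) had larger errors and read 0.28, 0.07 and -0.14 at their smallest without 1 array.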

How the data were processed

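Transcript levels of 6 arrays were taken from the values deposited by the authors, 1 intensity per probe set on a linear scale. How probes were summarised, and whether arrays were scaled, is not stated in the sources used here. Groups and replicate numbers came from the sample titles. All 6 arrays were quantile normalized together, values under the pooled 10th percentile (intensity 8.97) were raised to it, and log2 was taken. Of 9335 probe sets, 60 controls were left out.

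The 4 deletion arrays were fitted with limma 3.58.1 in R 4.3.3, moderated with a trend, with 2 residual degrees of freedom and Benjamini-Hochberg adjustment over 9275 probe sets at 0.05. A gene took the brightest probe set that names it alone. Of the 9275, 6504 probe sets name 1 gene, 328 several and 2443 none, and symbols came from the platform annotation, matched by gene identifier for 6504. The 53 gene lists carry no test and are described by counts and medians. The comparison and the lists were chosen with earlier results of these data known.

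Genes were named by a rule: GPR1 and GPA2, the 15 in each direction with the smallest unadjusted p without overlap (0 passed the threshold), up to 4 members of each described list with the largest difference, and every measured member of the cAMP and protein kinase A list. An item withheld from this text is not reported here. Names outside the rule were picked after seeing values, as stated beside them. The fit was also run on simulated data, with changes added only to probe sets brighter than the median and a spread given to every probe set before the floor. On the real arrays 510 probe sets had no spread, so that run does not check the fit near the floor. Same-numbered gpr1 and gpa2 arrays had deviations that correlated at 0.126, over 2 pairs, which does not establish pairing. Alternatives were a replicate block, no scaling, other scalings, floors, dim filters and moderation, the spread of all 6 arrays, and leaving out each array.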

Additional observations from a re-analysis of the deposited data

How the results depend on the processing

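Beside 0 probe sets past the limma threshold, 2 passed with no floor (GPR1 and GPA2), 5 with the floor at the 25th percentile, 3 with dim probe sets under the 25th percentile left out, 4 with those under the median left out, 5 with the spread taken from all 6 arrays, and 2 with that spread and the 25th percentile filter. A replicate block, the only paired analysis, also gave 0, with 483 at an unadjusted p under 0.05. Every other setting tried, leaving out each array included, gave 0. Without scaling the list medians were 0.29 for stress, 0.46 for trehalose, 0.31 for glycogen, 0.96 for ribosome biogenesis, 0.88 for RNA polymerases I and III, 0.83 for translation factors and 0.79 for purine and pyrimidine genes, beside 0.71 for all genes, which is the shift that scaling removes. Under median centring these 7 medians were -0.39, -0.24, -0.38, 0.26, 0.20, 0.14 and 0.13, but cytosolic ribosomal protein genes had 9 higher and 72 lower (median -0.25, against 40 and 41), and cell wall genes 17 and 46 (median -0.08). Leaving out each array in turn gave medians of -0.50 to -0.29 for stress, -0.38 to -0.18 for trehalose, -0.55 to -0.25 for glycogen, 0.16 to 0.37 for ribosome biogenesis, 0.15 to 0.26 for the polymerases, 0.10 to 0.21 for translation factors and 0.08 to 0.19 for purine and pyrimidine genes, with no change of direction in these 7 lists. Among single genes, counting a direction as turned where both values exceed their SE, 3 turned, all on the deposited values without that shift removed: HST4 (0.06, against -0.33), SIC1 (0.45, against -0.27) and TPS1 (0.38, against -0.31). Signal near the floor limits dim genes, and 2 arrays per group limit the rest.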

Other observations

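Iron and other metal genes were a further group that read higher in the gpr1 deletion. Of 36 measured genes for iron, copper and zinc, 24 read higher and 11 lower, with a median of 0.17 (0.07 without gpr1 array 2, 0.22 at the highest). Without overlap, 10 lay above (27.8%, against 15.7% of all genes) and 3 below (8.33%, against 14.6%). SIT1, a transporter of iron bound to siderophores, read 10.87 and 10.54 on the gpr1 arrays, against 9.23 and 9.77 on the gpa2 arrays and 9.36 and 10.12 in wild type, a difference of 1.20 ± 0.27. FRE2, a ferric reductase, differed by 1.20 ± 0.50 at a dim level, FIT1, a cell wall protein that retains iron, by 0.54 ± 0.39, and FET3, the iron oxidase of high-affinity uptake, by 0.42 ± 0.16. Without 1 array the smallest values for these 3 genes were 0.67, 0.23 and 0.23. No gene of the list passed limma's adjusted test. Over 29 further lists, medians lay between -0.16 and 0.23, and no member passed.

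Genes beside the deleted ones were read as a check. In the gene order of the R64 assembly, PUS9 and SLM3, next to GPR1, differed by -0.07 ± 0.21 and -0.04 ± 0.18, and SBH2 and RPN3, next to GPA2, by 0.11 ± 0.14 and 0.14 ± 0.22. BSC1, 2 genes from GPR1, lay at the floor of 3.16 on all 4 deletion arrays, against 9.21 and 9.42 in wild type. PRM7, 3 genes from GPR1, read 9.40 and 9.43 on the gpr1 arrays, against 9.11 and 9.32 on the gpa2 arrays and 11.55 and 11.64 in wild type. These values are from the brighter of 2 probe sets of PRM7, which differed by 0.20, and the other differed by -0.19. HIS3, an auxotrophic marker gene of W303 strains, differed by 1.22 ± 0.37 on 1 probe set of HIS3 and by 0.10 on the other. BSC1, PRM7 and HIS3 were named after their values were seen.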
